A study of Mus musculus with 8 samples.

Results

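The genes described are 10 plasma membrane amino acid transporters, Slc7a1, Slc7a2, Slc3a2, Slc7a5, Slc7a6, Slc7a7, Slc7a8, Slc1a5, Slc38a1 and Slc38a2, taken by gene symbol from a table of 22063 rows. All 10 had a row in the table, and 9 of them were among the 10770 genes that passed a filter on low counts and were tested. The study examined whether tranilast, an anti-allergic drug, alters the response of the mouse liver to excess lipid. RNA was sequenced from 8 libraries labelled as liver of wild-type (WT) animals, 4 labelled control and 4 labelled control plus tranilast. According to the series design both groups received a high-fat, high-cholesterol (HFHC) diet, and the methods of the study describe male C57BL/6J mice. The dose, age and length of treatment of the sequenced mice were not given in the labels.

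The estimated counts of a control library added up to 14585143 at the lowest and 15618789 at the highest, and those of a tranilast library to 12053036 at the lowest and 14679384 at the highest. Counts were expressed as CPM, relative to the library total after scaling with TMM (trimmed mean of M values) factors. A gene with 0 counts could still stand at up to 3 counts, which is 0.196 to 0.240 CPM depending on the library, a limit that covers counting error only. Because the labels do not say that the libraries of a group came from separate animals, the p-values measure the spread between these libraries.

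The tissue label was checked against marker genes. Alb, the main plasma protein made by hepatocytes, had 0 to 2 counts in every library. Together, 10 hepatocyte markers made up at most 0.000149% of the counts of any library, and 4 of them (Serpina1a, Cyp3a11, Fabp1 and Hnf4a) had no count at all. Ttr was the most abundant of them, at 0 to 17 counts. Macrophage genes were abundant instead. Lyz2, which encodes a lysozyme of myeloid cells, had 51267 to 68975 counts, and Csf1r, the receptor for colony-stimulating factor 1, had 29718 to 38395. A list of 14 macrophage markers took 1.01% to 1.08% of the counts, with overlapping groups. Not all of the list was present, since Mertk did not exceed 1 count, C1qa, C1qb and C1qc ranged from 0 to at most 11 counts, and Aif1 had 11 to 25. Clec4f, a marker of Kupffer cells, the macrophages resident in liver, had 0 counts in all 8 libraries. The markers thus went against the liver label, and the libraries are described by their treatment labels alone.

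Amino acids cross the plasma membrane through carriers that differ in substrate and in driving force. Slc7a1 and Slc7a2 carry arginine and lysine, Slc7a5 to Slc7a8 are light chains that reach the membrane only when joined to the heavy chain Slc3a2 (CD98), and Slc1a5, Slc38a1 and Slc38a2 move glutamine and other small neutral amino acids together with sodium. In macrophages, arginine entering the cell feeds nitric oxide synthase, while leucine taken up by the Slc7a5 and Slc3a2 pair in exchange for glutamine is a known input to the growth-controlling kinase complex mTORC1.

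With tranilast, transcripts for the heavy chain Slc3a2 and the arginine carrier Slc7a1 rose, and those for the glutamine carriers Slc1a5, Slc38a1 and Slc38a2 fell, in a fit scaled with TMM; the rises were also called with each other scaling tried, whereas all 3 falls lost their call with upper-quartile factors, library size alone and FPKM. The light chain Slc7a8 was called higher too, but its groups overlapped in CPM and its call was lost in 4 of the 8 fits that left out a library. In the TMM fit (edgeR, quasi-likelihood, p adjusted by Benjamini-Hochberg across the genes tested), 6 of the 9 tested members passed an adjusted p threshold of 0.05, beside 57% of all genes tested. Of these, 3 were higher, beside 28.2% of all genes, and 3 were lower, beside 28.8%. These shares of members lie close to those of all genes and are not a result about the members. The CPM of the groups did not overlap for 5 members, beside 49.8% of all genes tested. With a log2 fold change of at least 1.5 in either direction required as well as the adjusted p, edgeR called 0 members, beside 1.11% of all genes tested; for these 9 members the largest fold change under any alternative, DESeq2 and limma-voom included, was 0.39 on the log2 scale. The 10th, Slc7a2, was tested only in the fit with no filter, at counts too low for a fold change to be read. The fold changes of the 9 members ran from -0.12 to 0.25 on the log2 scale. Their median was -0.011 beside 0.0085 for all genes, and their median size regardless of sign was 0.117 beside 0.209. The transporters thus moved by small amounts in a comparison where most genes passed the test. In bulk RNA, fewer cells of a type and less RNA per cell cannot be told apart.

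**Figure D1:**
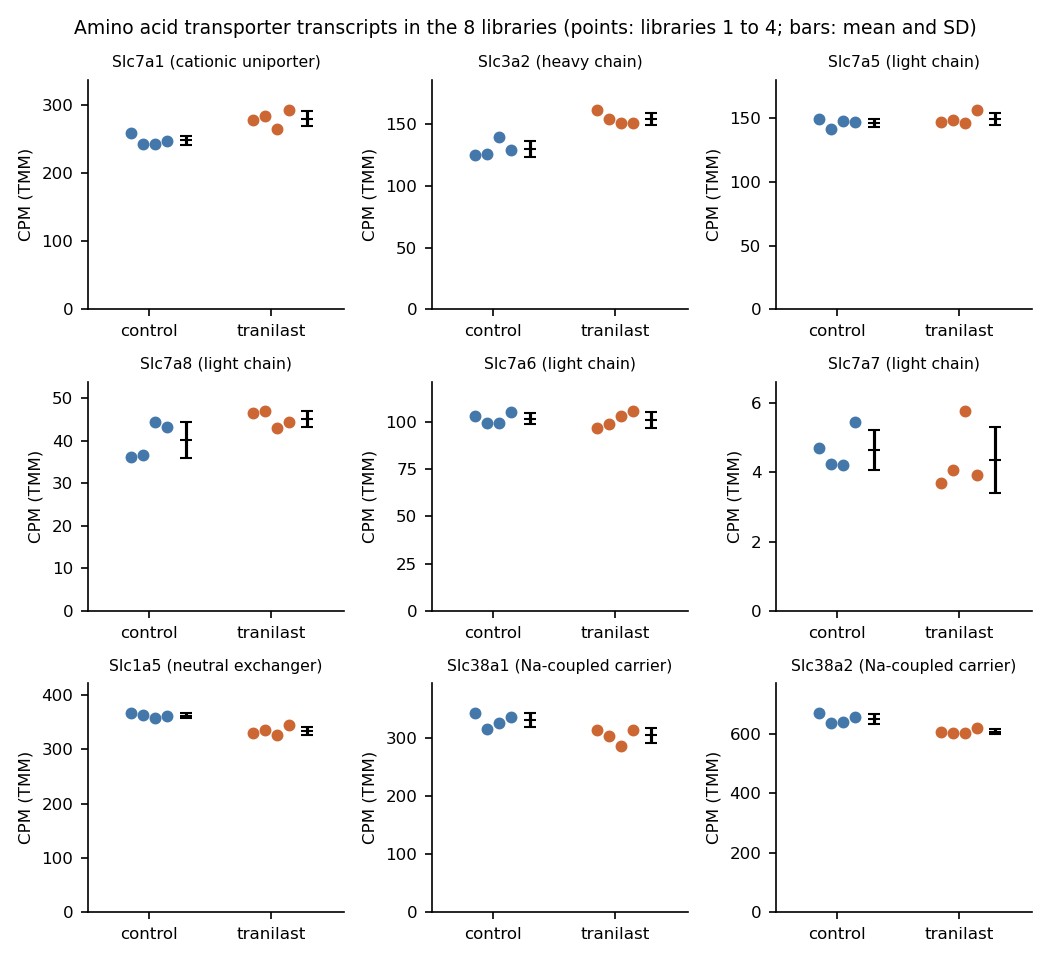
TMM-scaled CPM of 9 transporter genes in each of the 8 libraries, with the mean and SD of each group of 4 beside the points. Slc3a2 and Slc7a1 lie higher in every tranilast library than in any control library, and Slc1a5, Slc38a1 and Slc38a2 lie lower on this scale, although their falls are not called with upper-quartile factors, library size alone or FPKM.

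The choice of scaling decided how the smaller changes read. TMM factors were 0.956 to 0.965 in control and 1.04 in every tranilast library. Without them, at library size alone, the median log2 fold change of all genes went from 0.0085 to 0.125. With the deposited FPKM (fragment counts scaled to transcript length and library size) it was 0.103 on the log2(FPKM + 1) scale. Of all genes called, TMM put 49.5% on the higher side, upper-quartile factors 62.6%, library size alone 70.9% and FPKM 70.5%. A change of library factors shifts all genes by nearly the same amount, so distances from the median of all genes are the same by construction, 0.24 for Slc3a2 and -0.13 for Slc1a5 with TMM and with library size alone. The FPKM scale is not such a shift, and there the distances from the median moved by different amounts. From TMM to log2(FPKM + 1), the distance went from 0.24 to 0.28 for Slc3a2, from 0.17 to 0.21 for Slc7a1 and from 0.16 to 0.16 for Slc7a8. It went from -0.13 to -0.11 for Slc1a5, from -0.13 to -0.071 for Slc38a1, from -0.11 to -0.086 for Slc38a2 and from -0.019 to -0.057 for Slc7a6. No distance of a tested member from the median changed sign between these scales. Which of these scales matches the amount of RNA per cell was not tested.

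**Figure D2:**
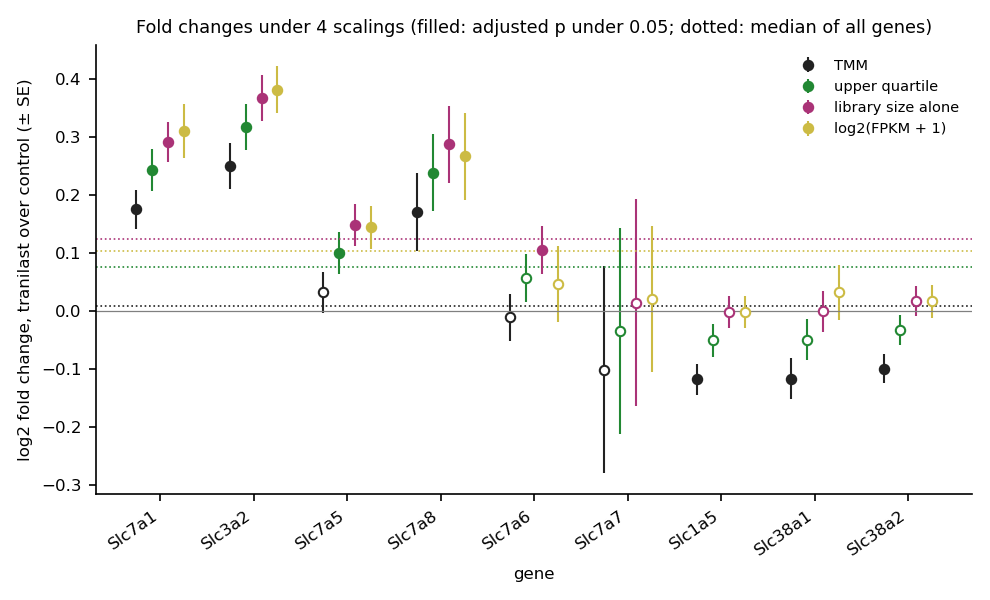
Log2 fold change of each tested transporter with its standard error under 4 scalings, with filled points for an adjusted p under 0.05 and dotted lines for the median of all genes in each fit. Slc3a2, Slc7a1 and Slc7a8 are above 0 and filled under all 4, whereas Slc1a5, Slc38a1 and Slc38a2 are filled with TMM alone. Slc38a2 turns positive with library size alone and FPKM, and Slc38a1 with FPKM.

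Of the uniporters for cationic amino acids, Slc7a1 was well above the limit of detection and Slc7a2 was not. Slc7a1 read 258, 243, 243 and 247 CPM in control libraries 1 to 4 and 279, 283, 265 and 293 CPM in tranilast libraries 1 to 4. Every tranilast library was above every control library. The mean went from 248 ± 7.20 to 279.9 ± 11.5 CPM (SD, n = 4 per group), a log2 fold change of 0.18 with a standard error of 0.034 and an edgeR adjusted p of 2.66e-04. An exact two-sided permutation test gave p = 0.0286, the smallest that 4 against 4 libraries allow. Per length, Slc7a1 was at 33.8 ± 2.11 FPKM in control and 42.1 ± 1.12 FPKM with tranilast, again with no overlap. Slc7a2, the inducible carrier of the same substrates, had 0 counts in all control libraries and 0, 2, 1 and 2 counts in the tranilast libraries. Both groups of Slc7a2 were at or under the limit of 3 counts, so no fold change is given and the gene was not tested in the TMM fit. The fit with no filter included Slc7a2 and did not call it (adjusted p 0.0924).

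Slc3a2, the shared heavy chain, showed the largest fold change of the 9 members tested in the TMM fit. It read 125, 126, 139 and 129 CPM in control libraries 1 to 4 and 161, 154, 151 and 151 CPM in tranilast libraries 1 to 4. The groups did not overlap, although control library 3 lay above the other controls. The mean went from 129.5 ± 6.65 to 154 ± 4.91 CPM (SD, n = 4 per group), a log2 fold change of 0.25 with a standard error of 0.040 and an edgeR adjusted p of 3.75e-05. The exact permutation test gave p = 0.0286. With 1 library left out at a time, the log2 fold change stayed between 0.23 and 0.29. On the FPKM scale the rise was from 67.9 ± 3.49 to 88.8 ± 2.998.

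The light chains differed among themselves. Slc7a8 (LAT2), a carrier of a broad range of neutral amino acids, read 36.1, 36.8, 44.3 and 43.3 CPM in control libraries 1 to 4 and 46.6, 46.9, 43.0 and 44.4 CPM in tranilast libraries 1 to 4. Control libraries 1 and 2 were low, while control libraries 3 and 4 fell within the range of the tranilast group. The fitted log2 fold change was 0.17 with a standard error of 0.067 and an edgeR adjusted p of 0.0363, and the exact permutation test gave p = 0.114. The call was lost in 4 of the fits that left out a library. The log2 fold change of Slc7a8 was 0.12 without control library 1 (adjusted p 0.136) and 0.13 without control library 2 (0.120), whereas without tranilast library 1 (0.0789) or tranilast library 2 (0.0853) it was 0.16, nearly as large as with all libraries. Across all fits the log2 fold change of Slc7a8 ranged from 0.12 to 0.29 and its adjusted p from 0.00116 to 0.136. In FPKM, 9.43 ± 1.01 in control and 11.5 ± 0.477 with tranilast, the groups of Slc7a8 did not overlap.

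Slc7a5 (LAT1), the carrier of leucine and other large neutral amino acids, did not pass the test in the TMM fit. It read 149.6, 142, 148 and 147 CPM in control libraries 1 to 4 and 147, 149, 146 and 157 CPM in tranilast libraries 1 to 4, and the groups overlapped. Its log2 fold change was 0.032 with a standard error of 0.035 and an edgeR adjusted p of 0.451, but it was called higher with upper-quartile factors (adjusted p 0.0251), library size alone (0.00165) and FPKM (0.00767), within a range of 0.00165 to 0.762 over all alternatives. Slc7a6, which exchanges cationic for neutral amino acids, had a log2 fold change of -0.011 with a standard error of 0.041, and library size alone called it higher. Its control libraries spanned 99.3 to 105 CPM but 29.8 to 38.3 FPKM, a wider spread per length than in counts. Slc7a7, which performs a similar exchange, was the scarcest tested member, at 61 to 78 counts in control and 52 to 72.1 with tranilast. Its standard error of 0.18 on the log2 scale exceeded its log2 fold change of -0.10, so a change of that size was not detectable at this depth. The log2 fold change of Slc7a7 was -0.25 without tranilast library 3 and -0.018 without control library 4, and it was not called in either fit. Slc7a7 also overlaps the gene Oxa1l over 232 bases on the opposite strand, and Oxa1l had 1017 to 1246 counts.

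The glutamine carriers moved the other way in the TMM fit; their falls were not called with upper-quartile factors, library size alone or FPKM, Slc38a2 turned positive with both of the latter, and Slc38a1 with FPKM. Slc1a5 (ASCT2), a sodium-dependent exchanger, read 367, 363, 358 and 360.4 CPM in control libraries 1 to 4 and 329.5, 334, 326 and 344 CPM in tranilast libraries 1 to 4. No tranilast library reached the lowest control. In the TMM fit Slc1a5 fell by 0.12 on the log2 scale with a standard error of 0.027 and an edgeR adjusted p of 0.00122. In FPKM its group means were 126 ± 1.66 in control and 126 ± 3.30 with tranilast and overlapped.

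Slc38a1 (SNAT1) and Slc38a2 (SNAT2) are sodium-coupled carriers of the same subfamily. Slc38a1 read 342, 315, 324 and 336 CPM in control libraries 1 to 4 and 312, 303, 286 and 313 CPM in tranilast libraries 1 to 4. These groups came close, the lowest control standing just above the highest tranilast library, but did not overlap. Slc38a1 fell by 0.12 on the log2 scale with TMM, with a standard error of 0.035 and an edgeR adjusted p of 0.00820. Slc38a2 read 671, 637, 639 and 655 CPM in control libraries 1 to 4 and 605, 602, 602 and 619.6 CPM in tranilast libraries 1 to 4, with a clear gap between the groups on this scale. Slc38a2 fell by 0.10 with a standard error of 0.025 and an edgeR adjusted p of 0.00232 in that fit. The exact permutation test gave p = 0.0286 for Slc1a5, Slc38a1 and Slc38a2 alike on TMM-scaled CPM. With the deposited FPKM, the log2 fold changes of Slc38a1 and Slc38a2 turned positive, 0.032 and 0.017, and were not called.

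Levels can be compared between genes only per length. In control, mean FPKM ran in the order Slc38a2 (134), Slc1a5 (126), Slc3a2 (67.9), Slc38a1 (52.7), Slc7a5 (40.0), Slc7a6 (34.6), Slc7a1 (33.8), Slc7a8 (9.43), Slc7a7 (2.88) and Slc7a2 (0). In control, neighbours in this order did not overlap between libraries except Slc7a6 and Slc7a1. With tranilast the order was the same but for Slc7a1 (42.1) standing above Slc7a6 (35.6), and no neighbours among the 9 tested members overlapped. Summed over the 10 members, FPKM went from 501 ± 13.6 to 540.3 ± 9.11 (SD, n = 4 per group) without overlap, while summed TMM-scaled CPM went from 2012 ± 38.7 to 1979 ± 42.2 with overlap. The direction of the sum thus depended on the scale.

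**Figure D3:**
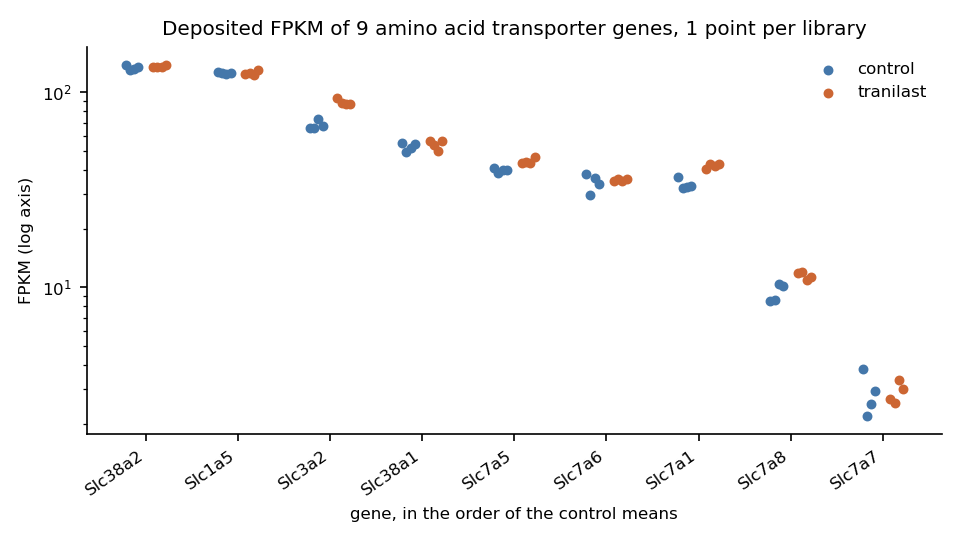
Deposited FPKM on a log axis for the 9 tested transporters in the order of their control means, with 1 point per library. The glutamine carriers Slc38a2 and Slc1a5 lie above 100 FPKM in both groups, and Slc7a1 passes Slc7a6 in the tranilast libraries.

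Because a light chain needs the heavy chain, the ratio of their counts within a library was compared as well, a measure that does not depend on library scaling. The log2 ratio of Slc7a5 to Slc3a2 was 0.26, 0.18, 0.085 and 0.19 in control libraries 1 to 4 and -0.13, -0.048, -0.044 and 0.056 in tranilast libraries 1 to 4. The groups did not overlap, and the mean difference, tranilast minus control, was -0.22. The ratio of Slc7a6 to Slc3a2 also did not overlap between groups and differed by -0.26. Both had an exact permutation p of 0.0286, and both missed the threshold after adjustment over the 8 pairs compared (adjusted p 0.114). Of the 8 pairs, 0 passed an adjusted p of 0.05 in the exact permutation test and 2 had an unadjusted p under 0.05. At least 5 pairs would have had to reach the smallest p, 0.0286, for any adjusted p to fall under 0.05, so these misses say little about the ratios. The ratio of Slc7a8 to Slc3a2 differed by -0.075 (exact permutation p = 0.257) and that of Slc7a7 to Slc3a2 by -0.36 (exact permutation p = 0.114). Slc38a1 to Slc38a2 differed by -0.018 (exact permutation p = 0.657), so that these neighbours on the chromosome kept nearly the same proportion in both groups. Slc7a5 to Slc7a8 differed by -0.15 (exact permutation p = 0.171) and Slc7a6 to Slc7a7 by 0.096 (exact permutation p = 0.514). For Slc7a1 to Slc7a2 the ratio rests on the 0.5 added to each count of Slc7a2 and is not read.

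**Figure D4:**
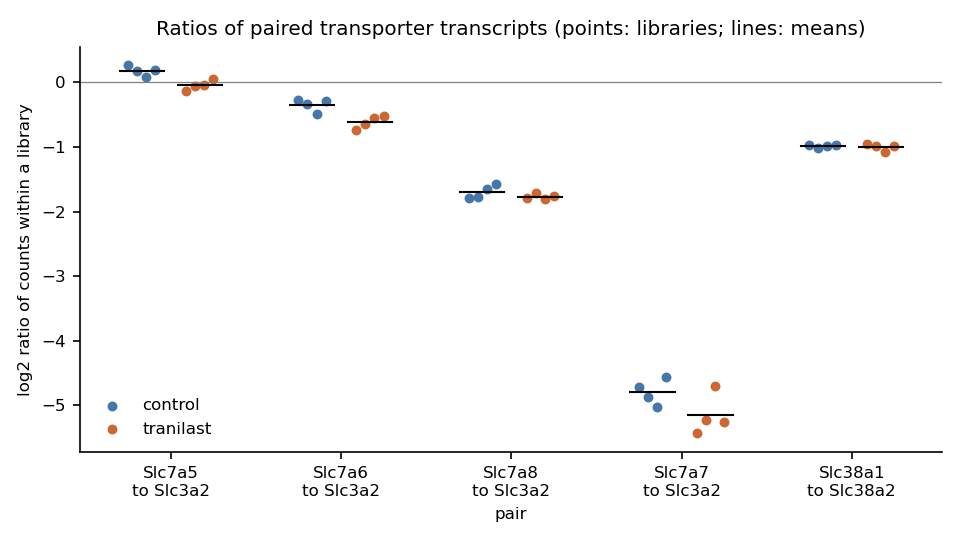
Log2 ratio of counts within each library for the 4 light chains over the heavy chain Slc3a2 and for Slc38a1 over Slc38a2, with points for libraries and lines for group means. The ratios of Slc7a5 and Slc7a6 to Slc3a2 are lower in all 4 tranilast libraries than in any control library, and the other 3 pairs overlap.

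Described after these values were seen, the FPKM of Slc3a2 divided by the summed FPKM of the 4 light chains was 0.784 ± 0.0508 in control and 0.942 ± 0.0434 with tranilast. It ranged from 0.718 to 0.8291 in control and from 0.897 to 1.001 with tranilast. With the FPKM of Slc7a11, a further light chain that pairs with Slc3a2, added to the sum, the ratio was 0.761 ± 0.0476 in control and 0.868 ± 0.0376 with tranilast, again without overlap. Within these 4 light chains, Slc7a5 made up 46.1% of the FPKM in control and 47.0% with tranilast, Slc7a6 39.7% and 37.7%, Slc7a8 10.9% and 12.2%, and Slc7a7 3.29% and 3.07%. Slc7a8 alone of the 4 did not overlap between groups in this share, and no test was run on it.

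In the mouse genome (GENCODE M21, GRCm38), the 10 genes lie on 6 chromosomes. Slc38a1 (chr15:96571418-96642913) and Slc38a2 (chr15:96687392-96699730) lie 44478 bases apart on the minus strand with 1 gene between them, which is not protein-coding. Slc7a7 (chr14:54369442-54417780) and Slc7a8 (chr14:54722209-54781946) lie 304428 bases apart on the minus strand. Slc3a2 is at chr19:8706882-8723369 and Slc7a1 at chr5:148327410-148399904, both on the minus strand, and Slc1a5 is at chr7:16781340-16798274 on the plus strand. Slc7a2, Slc7a5 and Slc7a6 are all on chromosome 8, at least 15682443 bases apart. All 10 are protein-coding genes, and no window of 75 bases was shared between members. Of the windows in transcripts of each member, some also occurred in other genes for 4 members, 5.40% in Slc7a2 (1 other gene), 4.46% in Slc7a7 (1, Oxa1l), 2.76% in Slc3a2 (108) and 2.60% in Slc38a1 (8), and how the authors' counting treated such reads was not given in the sources used here.

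Promoters from RefSeq (GRCm38.p6), the 250 bases upstream of each start, were available for 6 members with 12 starts, namely Slc7a1, Slc3a2, Slc7a8, Slc7a6, Slc7a7 and Slc38a2. The other members are Slc7a2, Slc7a5, Slc1a5 and Slc38a1. Sequences are shown for the 4 of these that passed the test in the TMM fit, 5′ to 3′ on the strand of the gene, with capitals for a match to a searched motif. They come from chr19:8713898-8714147 on the minus strand for Slc3a2, chr5:148399905-148400154 on the minus strand for Slc7a1, chr14:54781887-54782136 on the minus strand for Slc7a8 and chr15:96699729-96699978 on the minus strand for Slc38a2, whose call is lost with library size alone. The promoter shown for Slc3a2 lies wholly within the span of its gene in GENCODE, and those for Slc7a8 and Slc38a2 lie partly within theirs.
Slc3a2: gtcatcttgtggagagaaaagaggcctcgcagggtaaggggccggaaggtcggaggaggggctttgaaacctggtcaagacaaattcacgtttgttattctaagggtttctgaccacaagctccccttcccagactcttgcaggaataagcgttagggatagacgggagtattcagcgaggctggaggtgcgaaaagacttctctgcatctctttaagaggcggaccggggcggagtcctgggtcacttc
Slc7a1: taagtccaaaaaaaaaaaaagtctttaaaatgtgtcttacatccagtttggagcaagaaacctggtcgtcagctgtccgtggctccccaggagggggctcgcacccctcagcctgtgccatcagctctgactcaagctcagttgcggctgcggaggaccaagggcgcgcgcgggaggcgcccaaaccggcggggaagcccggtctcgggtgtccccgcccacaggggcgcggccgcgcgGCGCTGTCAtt
Slc7a8: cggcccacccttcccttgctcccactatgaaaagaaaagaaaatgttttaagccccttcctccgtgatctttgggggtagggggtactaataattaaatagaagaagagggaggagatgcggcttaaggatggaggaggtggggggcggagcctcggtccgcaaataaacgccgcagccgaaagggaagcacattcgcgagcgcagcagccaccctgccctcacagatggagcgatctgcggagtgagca
Slc38a2: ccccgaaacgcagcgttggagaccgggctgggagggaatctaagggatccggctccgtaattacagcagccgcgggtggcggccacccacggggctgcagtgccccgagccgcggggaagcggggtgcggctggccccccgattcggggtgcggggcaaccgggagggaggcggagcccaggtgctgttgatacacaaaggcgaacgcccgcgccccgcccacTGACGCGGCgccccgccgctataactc

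The motifs searched on both strands were TGATGNAA, the core of the element bound by C/EBP and ATF factors, CACGTG, the E-box, and TGACNNNGC, the core of the antioxidant response element. Among 32851 promoters, 3.45% held the first, 6.02% the E-box and 10.2% the antioxidant element. Of the 12 member promoters, 2 held the first, both of Slc7a7, 0 held the E-box and 3 held the antioxidant element, in Slc7a1, Slc7a6 and Slc38a2. In Slc7a1 the match lies 3 to 11 bases upstream of the start shown, on the reverse strand, and the promoter of its second start (chr5:148392816-148393065, minus strand) held no match. Of the 2 promoters of Slc7a6 1 held the match, and in Slc38a2 it lies 19 to 27 bases upstream on the strand of the gene. The Slc3a2 and Slc7a8 promoters shown held no match. A match describes letters only.

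The transporters were set beside 8 lists of genes that carry, sense or use amino acids, 141 genes in all, of which 107 were tested. The test was passed by 70, which is 65.4% of those tested, beside 57% of all genes tested. With TMM 28.2% of all genes tested were called higher and 28.8% lower, the shares to set beside the counts of each list. With upper-quartile factors 36% were higher and 21.6% lower, with library size alone 42.8% and 17.6%, and with FPKM 36.8% and 15.4%. Among 22 genes of the amino acid stress response, 16 rose and 1 fell, with a median log2 fold change of 0.50 beside 0.0085 for all genes tested, and upper-quartile factors, library size alone and FPKM called 18, 19 and 19 higher. Atf4, the transcription factor at the centre of that response, rose by 0.46 (edgeR adjusted p 2.51e-09), and Asns, asparagine synthetase, by 0.60. Larger log2 rises are named only for genes with a mean count of at least 50, up to 4 by size. Sesn2, a leucine sensor, rose by 1.91, Trib3 by 1.84, Ddit3 by 1.34 and Pck2 by 1.11. Slc3a2 and Slc7a1 moved in the same direction as most of these genes, but by less than the median of the list. Slc7a8 did so too, with a call lost in some fits that left out a library. The other tested members did not follow in the TMM fit. There Slc1a5, Slc38a1 and Slc38a2 were called lower, and Slc7a5, Slc7a6 and Slc7a7 were not called. Those falls lost their call with upper-quartile factors, library size alone and FPKM.

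**Figure D5:**
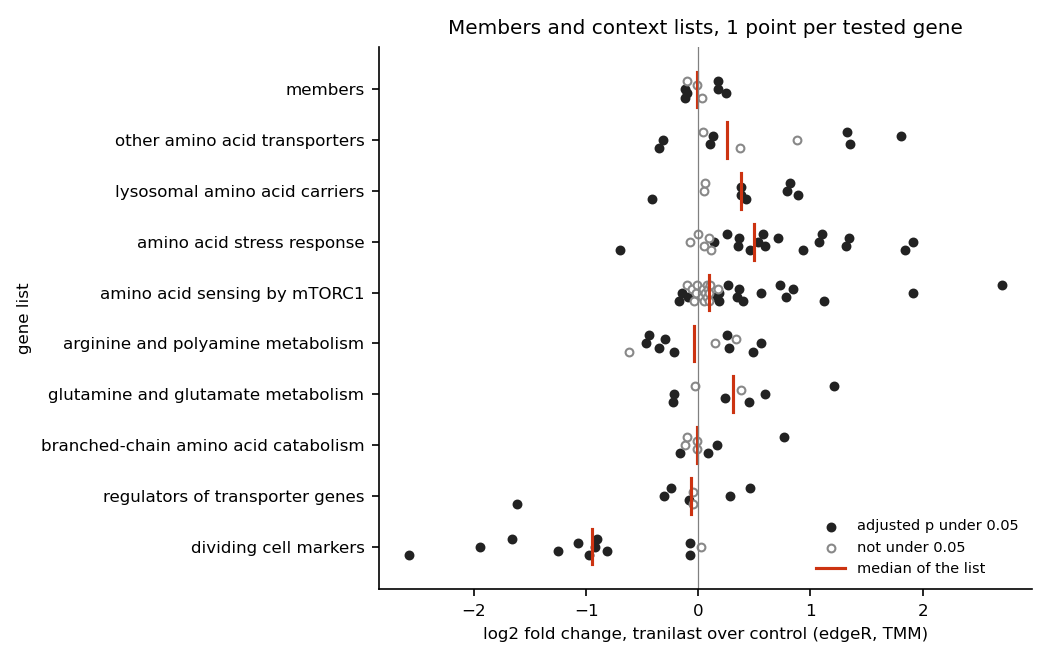
Log2 fold change of every tested gene of the transporters (labelled members), of 8 lists of amino acid genes and of the dividing-cell markers, with filled points for an edgeR adjusted p under 0.05 in the TMM fit and a line at each median. The transporters lie between -0.12 and 0.25, while the stress response list has its median at 0.50; the 3 filled transporters below 0 are not called with library size alone.

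Some other plasma membrane amino acid transporters moved further than the members. Of 38 such genes, 11 had no count in any library and 10 were tested, of which 5 rose and 2 fell. The median log2 fold change of the 10 was 0.25. It depended on the filter, at 0.135 over 9 genes with at least 10 counts in every library and 0.771 over 27 genes with no filter. Slc7a11, the light chain of the cystine and glutamate exchanger that also pairs with Slc3a2, rose from 21.9 ± 0.542 to 55.0 ± 3.95 CPM, a log2 fold change of 1.33 with a standard error of 0.062 (edgeR adjusted p 3.46e-12). Slc1a4, a carrier of alanine and serine related to Slc1a5, rose by 1.80 on the log2 scale, and Slc6a9, a glycine carrier, by 1.35. Slc6a6, the taurine carrier, fell by 0.35, and did so with every scaling. Among 10 carriers of the lysosomal membrane, 9 were tested, of which 6 rose and 1 fell in the TMM fit, with a median of 0.38; the count called higher was 5 with FPKM, 7 with upper-quartile factors and 8 with library size alone. Slc38a7 rose by 0.89, the cystine carrier Ctns by 0.82 and Mfsd12 by 0.43 on the log2 scale, and Slc15a3 fell by 0.41.

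Genes that sense amino acids for mTORC1 numbered 34, of which 33 were tested. In the TMM fit 14 rose and 3 fell with a median of 0.095, beside 28.2% and 28.8% of all genes tested. With upper-quartile factors, library size alone and FPKM 0 of them were called lower and 19, 22 and 19 higher, beside 36%, 42.8% and 36.8% of all genes tested called higher. In the same order the median of this list was 0.163, 0.212 and 0.214, beside 0.0761, 0.125 and 0.103 for all genes tested. Fnip2 rose by 1.12, Nprl2 by 0.84 and Flcn, folliculin, by 0.78 on the log2 scale. Mtor, the kinase itself, had a log2 fold change of 0.080 and an edgeR adjusted p of 0.108, and its alternatives ranged from 4.67e-04 to 0.265; it was called higher without tranilast library 4 (adjusted p 0.0479) and with upper-quartile factors, library size alone and FPKM.

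Enzymes that use the substrates of the members were mixed. Of 14 genes of arginine and polyamine metabolism, 12 were tested, of which 4 rose and 5 fell, with a median of -0.035 that turned to 0.082 with library size alone. Amd1 fell by 0.47, Sms, spermine synthase, by 0.44 and Odc1, ornithine decarboxylase, by 0.29 on the log2 scale, whereas Sat1, which acetylates polyamines, rose by 0.56 and Aldh18a1 by 0.49. Nos2, inducible nitric oxide synthase, had 21 to 84 counts in control and 21 to 43 with tranilast, a log2 fold change of -0.62 with an edgeR adjusted p of 0.112; it was called lower without control library 4 (adjusted p 0.0107) and in the fit with no filter (0.0480), in a range of 0.0107 to 0.442 over all alternatives. Of 8 genes of glutamine and glutamate metabolism, 4 rose and 2 fell, with a median of 0.31. Glul, glutamine synthetase, rose by 0.45, Gpt2 by 1.21 and Got1 by 0.24 on the log2 scale.

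Of 8 genes of branched-chain amino acid catabolism, 3 rose and 1 fell, with a median of -0.014 that turned to 0.10 with library size alone. Bckdha rose by 0.77 on the log2 scale. Bcat1, a transaminase, fell by 0.17 with TMM, a call lost with library size alone and FPKM. Bcat2, the mitochondrial transaminase, rose by 0.16 (edgeR adjusted p 0.0268), a call lost without control library 1 (0.0637), control library 4 (0.0537), tranilast library 1 (0.118) or tranilast library 2 (0.0646), in a range of 5.50e-04 to 0.118. The log2 fold change of Bcat2 in those fits was 0.15, 0.16, 0.12 and 0.15 in turn. Dld rose by 0.087 and passed narrowly at 0.0456 in a range of 9.32e-05 to 0.124, lost its call with RLE factors (0.0514), DESeq2 (0.0614) and no filter (0.0807), and had an adjusted p of 0.124 without control library 1, 0.106 without control library 3, 0.0543 without control library 4, 0.123 without tranilast library 2, 0.0668 without tranilast library 3 and 0.0767 without tranilast library 4. In the fits that lost the call of Dld, its log2 fold change stayed between 0.071 and 0.094. Among 10 regulators known to act on transporter genes, 8 were tested, of which 2 rose and 4 fell, with a median of -0.070 that turned to 0.047 with library size alone. Nfe2l2 (NRF2) rose by 0.28, Hif1a fell by 0.24 and Max by 0.31 on the log2 scale. Myc, at 7 to 45 counts, fell by 1.62 with a standard error of 0.31. Mycn, of the same family and named after its values were seen, was far more abundant, at 9627 to 12620 counts. It fell by 0.088 (edgeR adjusted p 0.00361) with TMM and turned positive, without a call, with library size alone and FPKM.

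Markers of dividing cells moved with the treatment. Their 12 genes took 0.480%, 0.462%, 0.479% and 0.486% of the counts in control libraries 1 to 4 and 0.306%, 0.313%, 0.312% and 0.312% in tranilast libraries 1 to 4, without overlap, and 0 of the 12 had no count. In the TMM fit 11 of the 12 fell and 0 rose, while with upper-quartile factors, library size alone and FPKM 9 fell and 1 rose. Mki67, the most abundant of them, fell by 0.97 on the log2 scale. The falls were uneven across the list. Named after their values were seen, Plk1 fell by 2.58 and Ccnb1 by 1.95 in the TMM fit. By contrast, Mcm2 fell by 0.076 and Mcm5 by 0.074, and Pcna, at 0.024, was not called. The part of the difference in dividing-cell markers in the values of the transporters was not tested. Macrophage markers included 2 that rose and 6 that fell of 10 tested, with a median of -0.14 that turned to 0.018 with FPKM; Adgre1 rose by 0.21, while the falls of Csf1r (by 0.16) and Lyz2 (by 0.13) lost their calls with library size alone and FPKM, and that of Lyz2 also with upper-quartile factors (adjusted p 0.0716). Named after their values were seen, Fcgr1 fell by 1.42 and Itgam by 0.28 on the log2 scale, and both were called lower at an adjusted p of 0.05 in every fit (highest adjusted p 8.51e-05 and 0.00834). Cd68, named in the same way, rose by 0.16. Cd68 and Adgre1 were both called higher in every fit (highest adjusted p 0.00122 and 0.0273).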

How the data were processed

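The authors deposited a table with an estimated count and an FPKM value per gene and library, from poly-A RNA-seq; the aligner, counter and genome build were not given in the sources used here. Library groups came from the labels. Of the identifiers, 21973 of 22063 matched GENCODE M21 (GRCm38), the source of gene coordinates. Estimated counts, 92.7% to 93.9% of them whole to within 1e-06, were rounded and tested with edgeR 4.0.16 (R 4.3.3; filterByExpr, TMM, quasi-likelihood, Benjamini-Hochberg over 10770 genes). Single values and 8 within-library ratios, with 0.5 added to each count, had exact two-sided permutation tests. On the log2 scale, 0.1 was added to CPM.

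The alternatives were RLE and upper-quartile factors, library size alone, DESeq2 1.42.0, limma-voom (limma 3.58.1), a fit with no filter, a minimum of 10 counts per library, limma-trend on log2(FPKM + 1) and log2(FPKM + 0.1), a block for the replicate number, omission of each library, an absolute log2 fold change of 1.5, an adjusted p of 0.01, and for ratios 1 added or FPKM. Applying them to the context and marker genes, the context lists and single gene values was chosen after seeing the data. The test was checked on simulated data, with 10711 genes tested and 200 changed by 1 on the log2 scale, in either direction. It recovered 200 of these with 12 false calls. That check did not cover changes as small as those of the members or the choice of scaling.

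The members and lists were chosen with earlier results of these data known. Named genes were all 10 members, the genes called in each list up to 4 by size of change with a mean count of at least 50, the namesake factor or enzyme of a list, and the most abundant and the defining markers; some of these are not reported here. Where a symbol had more than 1 row, the row with the most counts was used. Tables were made with Python 3.11.15.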

Additional observations from a re-analysis of the deposited data

Results flagged for a closer look

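In 122 groups of 4 libraries examined, a library stood apart by Dixon's ratio of the gap to the range beyond its critical value in 5, none of them a transporter described here. Chance gives about 1 in 20 groups. In control, the highest library of Aldh18a1 stood apart (ratio 0.840), as did the lowest library of Mki67 (0.891) and of Ighm (0.930). Ttr, at 0 to 17 counts, stood apart through its highest control library (1) and its lowest tranilast library (0.910). Aldh18a1 and Mki67 kept their calls at an adjusted p of 0.05 in every fit, although neither reached the log2 fold change of 1.5 set as an alternative. Ighm (edgeR adjusted p 0.0193) lost its call without control library 4 (0.0704) or tranilast library 1 (0.0782), in a range of 4.13e-04 to 0.0782. Ttr was called higher without control library 1 (0.00302) or tranilast library 1 (0.0296), in a range of 0.00302 to 0.595, at counts too low for a fold change to be read.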

How the results depend on the processing

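Slc3a2 and Slc7a1 kept their direction and their call in every alternative that changed the scaling, tool, filter or unit, in the replicate block and in every fit with a library left out. The count of members called higher was 3 and became 5 with library size alone, and 0 where a log2 fold change of 1.5 in either direction was required. The count called lower was 3 and became 0 with upper-quartile factors, 0 with library size alone, 0 with log2(FPKM + 1), 0 with log2(FPKM + 0.1) and 0 at the fold change threshold. With a library left out, 2 to 3 members were called higher and 3 lower. Among the members and the named genes, log2 fold changes that reversed were, with upper-quartile factors, Slc7a6 at 0.057; with library size alone, Slc7a6 at 0.11, Slc7a7 at 0.015 and Slc38a2 at 0.017; with log2(FPKM + 1), Slc7a6 at 0.046, Slc7a7 at 0.021, Slc38a1 at 0.032, Slc38a2 at 0.017 and Csf1r at 0.0071; and with log2(FPKM + 0.1), Slc7a6 at 0.047, Slc7a7 at 0.032, Slc38a1 at 0.033, Slc38a2 at 0.017 and Csf1r at 0.0071. With a library left out, Slc7a6 ranged from -0.028 to 0.013, and the difference in the log2 ratio of Slc38a1 to Slc38a2 from -0.033 to 0.0070; that difference was 0.016 with FPKM in place of counts. Other genes of the lists that were called lower with TMM and turned positive with library size alone or FPKM, without a call, were Seh1l, Mycn, Ptprc, Cd14, Mcm2 and Mcm5. The cause was not tested. Of the context genes, 70 were called and 66 to 81 across the alternatives. The smallest permutation p with a library left out is 0.0571, so ratios then have values only.

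The replicate numbers were not taken to pair the libraries: same-numbered libraries correlated at 0.077, 0.070, 0.0097 and 0.23, and not every library correlated best with its own number. With the replicate block, 3 members were called higher and 3 lower, and 6009 genes in all in place of 6143.

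Depth limits Slc7a7 and leaves Slc7a2 untested except with no filter. The labels do not name separate animals, the markers go against the tissue label, and the markers of dividing cells differ between the groups. Counts describe transcripts, and neither protein nor transport was measured. Differences between members were tested only as the 8 ratios.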

Other observations

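Markers of other cell types were at most traces or rested on a single gene. Of 5 cholangiocyte markers, Spp1, which macrophages also express, made up nearly all counts (41980 to 64910) and fell by 0.37 on the log2 scale in the TMM fit, and in each other scaling; Krt7 had no count. Of 5 B cell markers, Ighm held nearly all counts, at 820 to 1109, and Ms4a1 had none. Zbtb46, a dendritic cell marker, had 12 to 20 counts in control and 21 to 49 with tranilast and rose by 1.24 on the log2 scale, whereas the other 4 markers of that list had 0 to 14 counts and were not tested. The summed counts of 6 neutrophil markers did not exceed 2 in any library, those of 6 T or NK cell markers 3, and those of 5 mast cell markers 1. The 7 endothelial markers summed to 6 to 11 counts, the 6 Kupffer cell markers to 1 to 9 and the 7 stellate cell markers to 2 to 38.

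In the pathway annotation deposited with the table, Protein digestion and absorption held 5 members (Slc3a2, Slc7a8, Slc7a7, Slc1a5 and Slc38a2), and mTOR signaling held 2 (Slc3a2 and Slc7a5).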
